A study of Mus musculus with 6 samples.

Results

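The 26 genes described here encode receptors for GABA and glycine, a scaffold of inhibitory synapses, and carriers of GABA, glycine and chloride. They were taken as a fixed list, and all 26 were among the 27514 genes measured in all 3 pools of the study. The data are UMI counts from single nuclei of mouse hypothalamus, sorted for the neuronal nuclear protein NeuN and captured with the 10x Genomics 3' v3 kit. Chow-fed mice, diet-induced-obese mice on a high-fat diet (DIO) and chow-fed ob/ob mice (OB), which lack functional leptin, each formed 1 pool. Within a pool, rapamycin-treated mice, which received a blocker of the kinase complex mTORC1, carried hashtag 1 and vehicle-treated mice hashtag 2, which gave 6 samples. Dose, duration, age, and the number of mice behind a hashtag are not given in the sources used here. With 1 sample per group, a difference between diets, genotypes or treatments within a pool has no replicates.

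GABA is the main inhibitory transmitter of the forebrain and glycine a second one. GABA-A and glycine receptors are chloride channels of 5 subunits, and the alpha, beta and gamma subunits in a GABA-A receptor set its kinetics and drug sensitivity. GABA-B receptors act through G proteins and are made of Gabbr1 and Gabbr2. In the hypothalamus, inhibitory input shapes the firing of Agrp and Pomc neurons and of the neurons that promote arousal.

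The chow pool held 10853 barcodes with a median of 5826 UMIs, the DIO pool 11405 with 5572, and the OB pool 12284 with 2805. Pairs of pools shared 31 to 38 barcodes. No hashtag could be called for 1.76% of chow, 3.56% of DIO and 30.4% of OB nuclei, the last being 3731 nuclei. The OB vehicle group held 2323 nuclei by this call and 5332 when hashtags were called by the ratio of the tags. The chow pool gave 9714 neurons with a call, the DIO pool 10130 and the OB pool 6416, with sums of 6439989 to 34302590 UMIs per sample. Of these 26260 neurons, 5749 were GABAergic by at least 2 UMIs of Slc32a1, Gad1 and Gad2, 2718 were glutamatergic by the vesicular glutamate transporters, and 67.3% had too few of these UMIs for a class. No member was used to set a class. Values are counts per 1e6 UMIs of the summed nuclei (CPM), and fewer transcripts per nucleus cannot be told apart from fewer expressing nuclei within a sum.

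Promoter sequences from RefSeq (GRCm38.p6) are shown for 3 members, as 250 bases before the annotated start on the minus strand. They were chosen after the values were seen: Gabrg1 and Gabra2 are neighbours on chromosome 5 that moved in opposite directions between the transmitter classes, and Gabrg3 was low in the Hdc and Foxb1 classes. Capitals mark the GC box, GGGCGG or its reverse complement.
Gabrg1: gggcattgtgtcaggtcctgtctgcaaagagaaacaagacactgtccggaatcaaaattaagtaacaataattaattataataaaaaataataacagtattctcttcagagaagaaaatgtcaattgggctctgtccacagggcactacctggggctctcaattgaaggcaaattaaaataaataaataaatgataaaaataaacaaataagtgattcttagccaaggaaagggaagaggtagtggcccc
Gabra2: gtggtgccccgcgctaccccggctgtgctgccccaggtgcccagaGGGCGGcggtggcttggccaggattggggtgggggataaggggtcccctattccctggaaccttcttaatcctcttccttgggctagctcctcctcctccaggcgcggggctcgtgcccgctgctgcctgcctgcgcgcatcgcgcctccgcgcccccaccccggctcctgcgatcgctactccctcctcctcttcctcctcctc
Gabrg3: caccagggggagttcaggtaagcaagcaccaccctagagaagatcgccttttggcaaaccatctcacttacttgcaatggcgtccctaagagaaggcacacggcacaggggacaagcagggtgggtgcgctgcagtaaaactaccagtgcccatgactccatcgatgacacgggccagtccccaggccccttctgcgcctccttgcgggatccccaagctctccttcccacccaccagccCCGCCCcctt
The windows lie at chr5:70842618-70842867, chr5:71095850-71096099 and chr7:57387216-57387465. Their GC contents are 35.6%, 70.0% and 60.4%, against a median of 52.4% over all 32851 promoter windows. The GC box occurs 1 time each in Gabra2 and Gabrg3 and 0 times in Gabrg1, and 32.7% of all windows hold it on either strand. The motifs TATAAA (12.4% of all windows), CACGTG (6.02%) and TGACG (17.8%) are in none of the 3 windows. Promoter windows were matched for 23 of the 26 members.

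Several members are neighbours in the genome. On chromosome 5 lie Gabrg1 (70751047 to 70842617), Gabra2 (70958392 to 71095849), Gabra4 (71569734 to 71658308) and Gabrb1 (71657921 to 72149572). Gabra4 and Gabrb1 point away from each other and overlap by 388 bases at their starts, and whether counting used the strand is not given in the sources used here. Chromosome 7 holds Gabrg3 (56716463 to 57387215) beside Gabra5 (57407669 to 57591016), and the X chromosome holds Gabre (72256926 to 72274828), Gabra3 (72432676 to 72656919) and Gabrq (72825163 to 72842607).

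Members were first compared between GABAergic and glutamatergic neurons, which asks whether cells that release GABA carry other inhibitory receptors than cells that release glutamate. Of the 21 members with enough counts, 4 were higher in GABAergic neurons (Gabre, Gabrg1, Gabrg3 and Gabra3) and 8 in glutamatergic neurons (Glra1, Glra3, Gabra5, Gabbr2, Gabra4, Gabra2, Gabrb1 and Gphn). Over all 13553 genes tested, 16.9% passed the same threshold, made up of 7.44% higher and 9.5% lower in GABAergic neurons. The median log2 difference, GABAergic minus glutamatergic, was -0.09 over the members and 0.01 over all genes. Apart from Gabre, the differences that passed were at most 0.65 on the log2 scale in either direction.

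Both gamma subunit genes among the members were higher in GABAergic neurons. Gabrg3, which codes for the gamma-3 subunit, stood at 1218 and 1273 CPM for chow rapamycin and vehicle, 1266 and 1316 for the DIO pair, and 1367 and 1459 for the OB pair in GABAergic neurons. In glutamatergic neurons it stood at 974 and 858 CPM for chow rapamycin and vehicle, 929 and 1043 for the DIO pair, and 1096 and 962 for the OB pair. The 2 sets of 6 values did not overlap (log2 0.38 ± 0.039 (SE), adjusted p = 8.5e-09). Gabrg1, coding for gamma-1, ranged from 139 to 159.5 CPM in GABAergic and from 93.1 to 113 CPM in glutamatergic neurons, again without overlap (log2 0.48 ± 0.047 (SE), adjusted p = 2.9e-09). The alpha-3 gene Gabra3 ranged from 169 to 185 and from 129.9 to 149.8 CPM (log2 0.28 ± 0.042 (SE), adjusted p = 6.9e-06). Gabre, the epsilon subunit, which makes receptors less sensitive to benzodiazepines, was scarce. Its GABAergic sums held 172 UMIs, at 3.44 to 8.32 CPM, against 0 to 2.66 CPM in glutamatergic neurons (log2 1.49 ± 0.26 (SE), adjusted p = 6.1e-05).

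Glra1 and Glra3, alpha subunits of glycine receptors, were higher in glutamatergic neurons. Glra3 stood at 143 and 153 CPM for chow rapamycin and vehicle, 139 and 146 for the DIO pair, and 132 and 139 for the OB pair in glutamatergic neurons. In GABAergic neurons its values were 93.1 and 103 CPM for chow rapamycin and vehicle, 97.3 and 92.0 for the DIO pair, and 91.5 and 71.2 for the OB pair. All 6 glutamatergic values were above all 6 GABAergic ones (log2 -0.65 ± 0.044 (SE), adjusted p = 1.6e-12). Glra1 was lower in GABAergic neurons in 6 of 6 samples, at 30.6 to 39.4 against 38.8 to 74.5 CPM, with overlapping ranges (log2 -0.65 ± 0.089 (SE), adjusted p = 1.6e-06). Glrb, the beta subunit that binds gephyrin, did not pass the test (log2 -0.08, adjusted p = 0.22), and neither did Glra2 (log2 -0.13, adjusted p = 0.20).

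The remaining calls were small. Gabrb1, a beta subunit, was lower in GABAergic neurons in 6 of 6 samples (log2 -0.22 ± 0.032 (SE), adjusted p = 5.2e-06), as was Gabbr2, the G-protein-coupling GABA-B subunit (log2 -0.28 ± 0.039 (SE), adjusted p = 1.8e-06). Gabra5, the alpha-5 subunit of extrasynaptic receptors, was lower in 5 of 6 (log2 -0.38 ± 0.058 (SE), adjusted p = 9.0e-06), and vehicle nuclei of the OB pool went the other way. Gabra2, the alpha-2 subunit, was lower in 5 of 6 (log2 -0.25 ± 0.039 (SE), adjusted p = 1.4e-05). Gabra4 was lower in 4 of 6 (log2 -0.27 ± 0.065 (SE), adjusted p = 0.0031) and Gphn in 5 of 6 (log2 -0.15 ± 0.035 (SE), adjusted p = 0.0025). The chloride carriers, whose balance sets whether GABA inhibits or excites, did not pass the test. Slc12a5, which extrudes chloride, had a log2 difference of -0.06 (95% interval -0.15 to 0.03), and Slc12a2, which imports it, one of 0.01 (-0.12 to 0.14).

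With a looser limit of 1 marker UMI, an alternative added after seeing the data, 5 members passed as higher and 12 as lower in GABAergic neurons. There 21.7% of all genes passed, against 16.9% in the main fit. With Slc32a1 alone set against Slc17a6 alone, 17 members could be tested and Glra3 alone passed (log2 -0.82, adjusted p = 7.3e-04), where 3.25% of all genes did. With a stricter class limit of 4 marker UMIs, 2 members passed as higher and 4 as lower in GABAergic neurons, against 7.48% of all genes. The Gabra2 difference at that limit was 0.03 (adjusted p = 0.94). Leaving out nuclei of the Hdc class at that limit, also added after seeing the data, gave -0.06 for Gabra2 (adjusted p = 0.83).

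**Figure D1:**
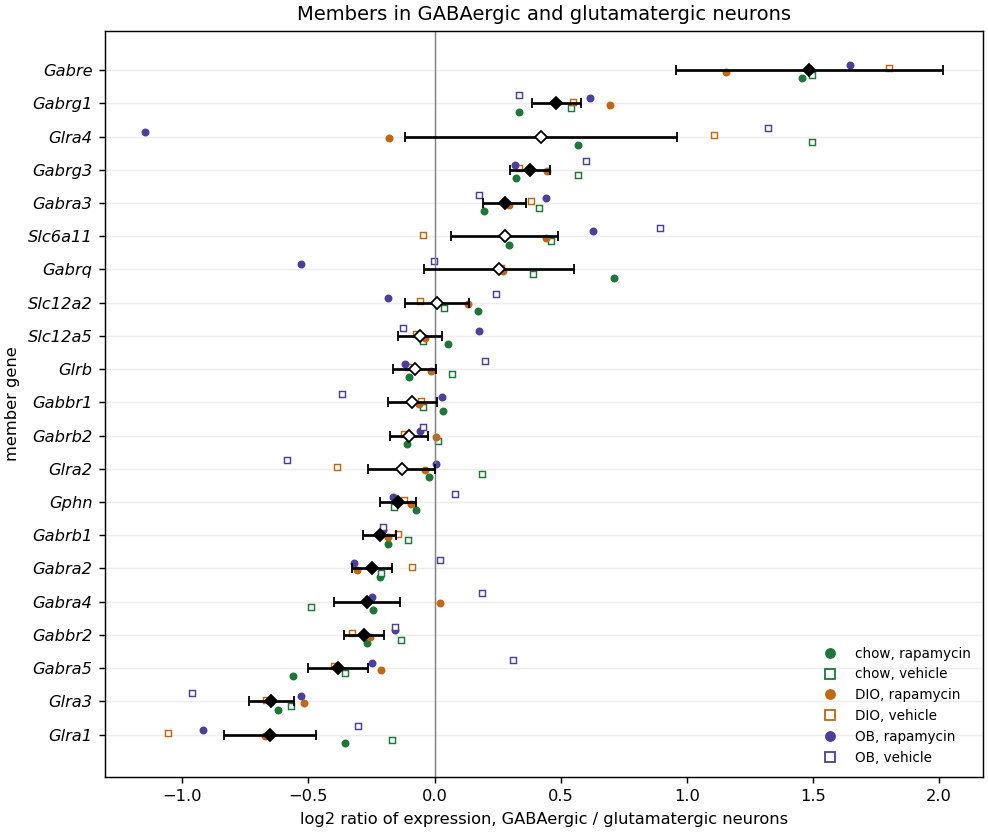
Log2 ratio of expression between GABAergic and glutamatergic neurons (x axis) for the 21 members tested (y axis). Coloured points are CPM ratios of the 6 samples (circles rapamycin, squares vehicle; samples with 0 UMIs in a class are not drawn), and diamonds with bars are the edgeR estimate and its 95% interval, filled where the adjusted p was at most 0.05. Gabre, Gabrg1, Gabrg3 and Gabra3 lie to the right of 0 in every sample drawn, and Glra1 and Glra3 to the left.

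A companion list of 50 further genes of inhibitory signalling that the class gates did not use, covering enzymes, auxiliary proteins, trafficking factors and other carriers, moved both ways. Of its 40 tested genes, 8 were higher and 7 lower in GABAergic neurons, against 16.9% of all genes called (7.44% higher and 9.5% lower). The median log2 difference of the 40 genes was -0.01. Abat, the enzyme that degrades GABA, was higher by 0.36 on the log2 scale (adjusted p = 1.2e-07). Kctd8, an auxiliary subunit of GABA-B receptors, was higher by 0.45 (adjusted p = 3.0e-07), Car2, a carbonic anhydrase, by 0.50 (adjusted p = 0.029), and the chloride carrier Slc12a1 by 0.46 (adjusted p = 0.014). Slitrk3, a synaptic adhesion protein, differed by -0.48 (adjusted p = 0.0021) and Plcl1, which binds the receptor-trafficking machinery, by -0.43 (adjusted p = 7.8e-09).

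Neurons and glia were then split by further marker genes, each class gated on genes outside the member list and set against all other neurons of the same sample. A class was tested where at least 3 samples held at least 10 of its nuclei, which 11 neuron classes and 2 glial classes did. Of 268 member and class pairs tested, 27 were higher and 101 lower in the class. The share of all genes called differed between classes, from 1.86% to 50.7%, and is given with each.

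**Figure D2:**
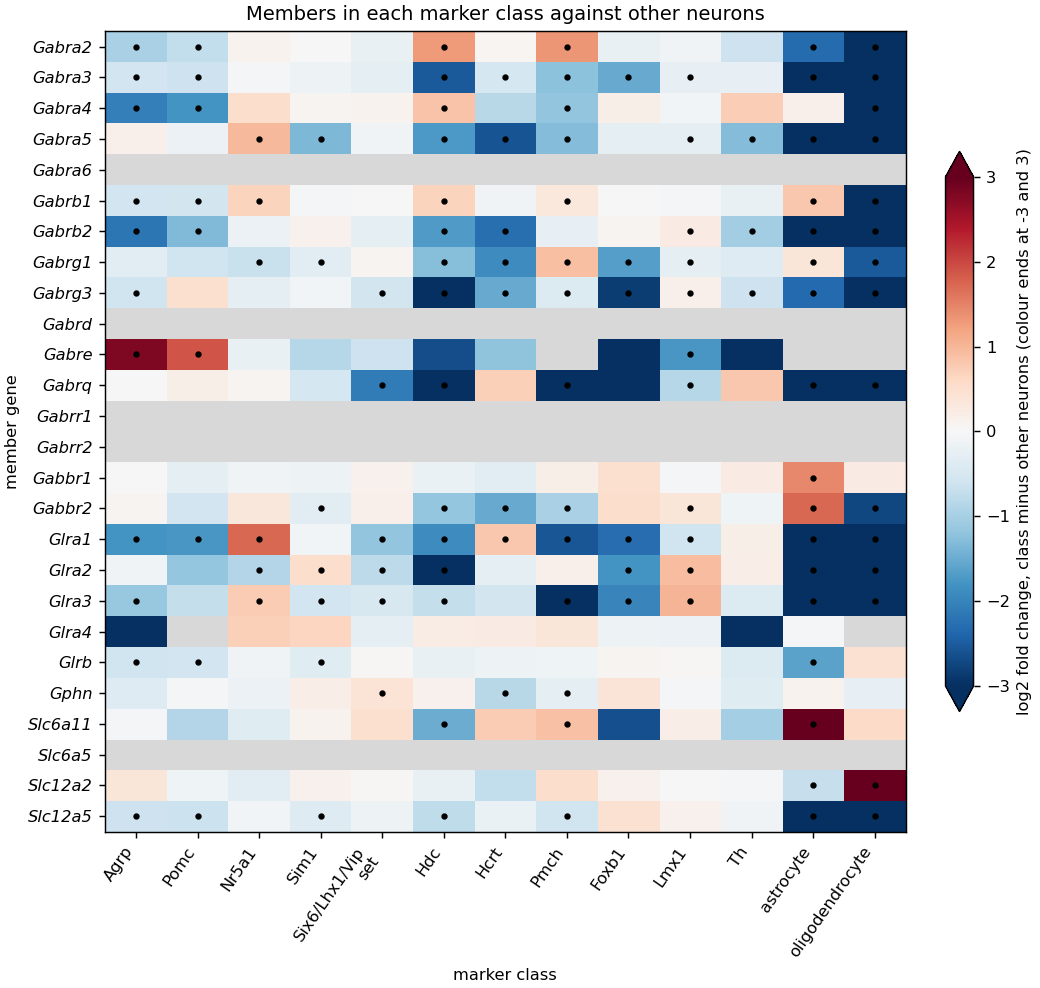
Log2 fold change of each member (rows) in each marker class (columns) against other neurons of the same samples, from edgeR, with colours ending at -3 and 3. Dots mark pairs with an adjusted p of at most 0.05 and grey cells were not tested for low counts; values at the dark blue end can come from classes with 0 UMIs of the gene. The Hdc column has 15 dots, 3 of them on red cells (Gabra2, Gabra4 and Gabrb1).

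The Hdc class, 230 nuclei with the histamine-synthesizing enzyme Hdc, had the most called members of the 11 neuron classes, 15. Hdc stood at 1539 to 1779 CPM in it, and the vesicular monoamine carrier Slc18a2 at 561 to 673 CPM. Of 21 members, 3 were higher and 12 lower, against 31.1% of all genes called (14.1% higher and 17% lower). These 15 calls held under all 8 alternatives run. Histaminergic neurons of the tuberomammillary nucleus are known to promote wakefulness and to receive inhibitory input from sleep-promoting neurons.

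Among the alpha subunits, Gabra2 was at 1189 and 1018 CPM for chow rapamycin and vehicle, 1044 and 1218 for the DIO pair, and 1039 and 1236 for the OB pair in the Hdc class. Other neurons of the same samples had 437 to 482 CPM, so the lowest Hdc value was above the highest of them (log2 1.28 ± 0.077 (SE), adjusted p = 1.3e-36). Gabra4 was also higher, at 66.2 to 133 against 46.1 to 56.8 CPM (log2 0.86 ± 0.14 (SE), adjusted p = 1.8e-08). Gabra3 was at 7.40 to 36.8 against 153 to 164 CPM (log2 -2.52 ± 0.16 (SE), adjusted p = 4.6e-33) and Gabra5 at 0 to 49.5 against 73.1 to 82.0 CPM (log2 -1.73 ± 0.20 (SE), adjusted p = 2.9e-14). The class thus had more of 2 alpha subunit genes and less of 2 others.

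The other subunits split as well. Gabrb1 was at 1856 to 2553 CPM in the Hdc class and 1265 to 1361 CPM in other neurons (log2 0.66 ± 0.076 (SE), adjusted p = 3.5e-14). Gabrb2 fell to 51.8 to 113 from 299 to 323 CPM (log2 -1.71 ± 0.11 (SE), adjusted p = 1.8e-32). Gabrg3 was at 107 and 29.0 CPM for chow rapamycin and vehicle, 149.5 and 186 for the DIO pair, and 198 and 133 for the OB pair, each below every value of other neurons, 1054 to 1199 CPM (log2 -3.08 ± 0.11 (SE), adjusted p = 4.3e-63). Oligodendrocyte nuclei of the same samples had 10.4 to 251 CPM of Gabrg3. Gabrg1 (log2 -1.27 ± 0.14 (SE), adjusted p = 1.2e-14) and Gabbr2 (log2 -1.16 ± 0.11 (SE), adjusted p = 1.2e-18) were lower too. For glycine receptors, Glra2 held 15 UMIs in all Hdc nuclei (log2 -3.22 ± 0.27 (SE), adjusted p = 7.0e-23) and Glra1 23 UMIs (log2 -1.89 ± 0.26 (SE), adjusted p = 1.1e-10). Slc12a5 was lower as well (log2 -0.77 ± 0.13 (SE), adjusted p = 5.0e-08).

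Peptide classes of the lateral hypothalamus came next. The Pmch class, 132 nuclei with the precursor of melanin-concentrating hormone, had 4 members higher and 10 lower, against 16.8% of all genes called (6.82% higher and 9.97% lower). Gabra2 was at 1223 and 1172 CPM in chow (rapamycin and vehicle), 1194 and 1264 in DIO, and 641 in the OB vehicle sample, with OB rapamycin left out of the fit for its 8 nuclei, against 453 to 488 CPM in other neurons (log2 1.32 ± 0.10 (SE), adjusted p = 7.8e-35). In the left-out OB rapamycin sample Gabra2 stood at 476 CPM, from 16 UMIs. Gabrg1 was at 146 to 342 against 115 to 127 CPM (log2 0.91 ± 0.12 (SE), adjusted p = 4.2e-12). Both neighbours on chromosome 5 were thus higher, and Gabrb1 too (log2 0.31 ± 0.10 (SE), adjusted p = 0.02), while Gabra4 of the same stretch was lower (log2 -1.18 ± 0.28 (SE), adjusted p = 2.5e-04). The Gabrb1 call was lost without the chow pool, without the DIO pool and with no filter on low counts, and the Gabra4 call without the chow pool.

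Of the glycine receptor genes, Glra1 and Glra3 were lower in Pmch nuclei, while Glra2 (log2 0.14, adjusted p = 0.70) and Glrb (log2 -0.13, adjusted p = 0.60) did not pass the test. Glra3 stood at 0 and 9.25 CPM in chow (rapamycin and vehicle), 23.9 and 2.71 in DIO, and 136 in the OB vehicle sample, where other neurons had 121 to 137 CPM (log2 -3.04 ± 0.26 (SE), adjusted p = 3.6e-30). The OB sample rested on 10 nuclei and overlapped the other neurons, and the 4 chow and DIO samples did not. Glra1 held 8 UMIs over the class (log2 -2.56 ± 0.40 (SE), adjusted p = 4.4e-09). Gabrq had 0 UMIs in 5 samples of Pmch nuclei while each sample of other neurons had at least 7.27 CPM. The call was lost without the DIO pool.

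The Hcrt class, 97 nuclei with the orexin precursor, was tested in 4 samples and had 1 member higher and 7 lower, against 11.7% of all genes called (4.3% higher and 7.37% lower). Gabra5 fell to 0 to 25.8 CPM from 72.7 to 80.4 (log2 -2.58 ± 0.38 (SE), adjusted p = 2.8e-10), and Gabrb2 to 19.6 to 155 from 298 to 323 CPM (log2 -2.27 ± 0.20 (SE), adjusted p = 1.2e-26). Gabrg1 (log2 -1.89 ± 0.26 (SE), adjusted p = 2.4e-11), Gabrg3 (log2 -1.51 ± 0.15 (SE), adjusted p = 3.1e-23), Gabbr2 (log2 -1.51 ± 0.19 (SE), adjusted p = 1.7e-13) and the scaffold Gphn (log2 -0.83 ± 0.14 (SE), adjusted p = 8.7e-08) were lower in 4 of 4 samples. Gabra2, high in the Pmch class, had a log2 difference of 0.05 here (adjusted p = 0.90). The difference between the classes was not tested. Glra1 was higher in 3 of 4 samples (log2 0.81 ± 0.24 (SE), adjusted p = 0.0084), a call lost under DESeq2.

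**Figure D3:**
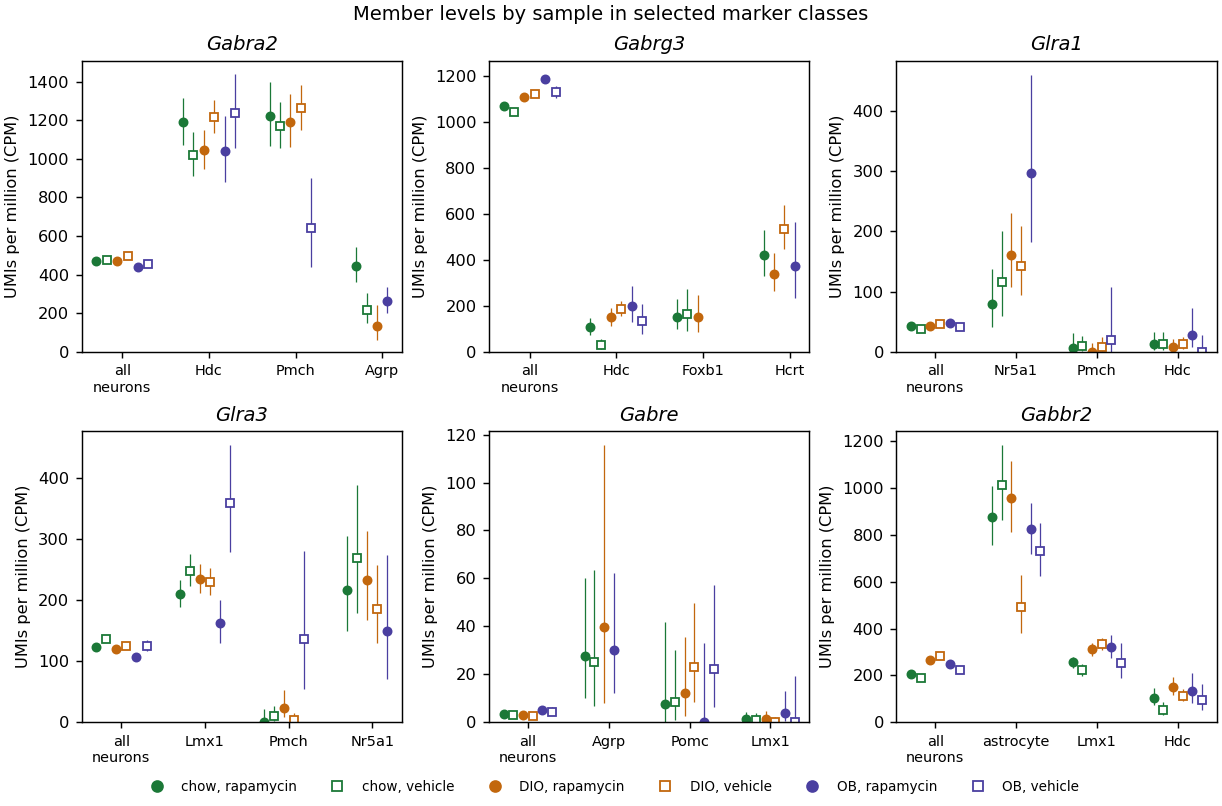
CPM of 6 members by sample in all neurons and in 3 marker classes each, for samples with at least 10 nuclei of the class. Circles are rapamycin and squares vehicle, colours are pools, and bars are exact 95% Poisson intervals, which cover counting error only. Gabra2 in the Hdc class lies above all neurons in all 6 samples, and Gabre in the Agrp class above all neurons in 4 of 4.

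Arcuate neurons were the next comparison. The Agrp class, 142 nuclei gated on Agrp, with or without Npy, the peptides of hunger-promoting neurons, had 1 member higher and 10 lower, against 6.94% of all genes called (2.16% higher and 4.79% lower), in 4 samples with at least 10 nuclei. Gabre was the member that was higher: it stood at 27.6 and 24.9 CPM in chow (rapamycin and vehicle), 39.6 in DIO rapamycin and 30.2 in OB rapamycin. These 4 values rest on 20 UMIs in all, and other neurons had 3.01 to 4.72 CPM (log2 2.81 ± 0.52 (SE), adjusted p = 3.0e-06). Gabrb2 was at 91.9 and 49.8 CPM in chow, 92.3 in DIO rapamycin and 86.3 in OB rapamycin. All 4 were below the 297 to 323 CPM of other neurons (log2 -2.17 ± 0.21 (SE), adjusted p = 1.0e-23). Gabra4, with 9 UMIs in the class (log2 -2.06 ± 0.41 (SE), adjusted p = 1.6e-05), Gabra2 (log2 -0.98 ± 0.17 (SE), adjusted p = 3.4e-07) and Glra3 (log2 -1.15 ± 0.22 (SE), adjusted p = 1.3e-05) were lower in 4 of 4 samples. Gabre, Gabrb2, Gabra4, Gabra2 and Glra3 passed under all 6 alternatives that could be fitted, and the other 6 calls did not. The vehicle samples of DIO and OB were left out of the fit for their 8 and 9 nuclei. In them Gabre had 0 UMIs in both, and Gabra2 stood at 503 and 325 CPM, the first above the 444 to 476 CPM of other neurons.

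The Pomc class needed a check before use. Its 220 nuclei had Pomc at 1493 CPM in chow, 3832 in DIO and 20577 in OB. Cartpt, a peptide gene of arcuate Pomc neurons, was at 221, 150.2 and 3.40 CPM, and the pituitary factor Tbx19 at 0, 41.0 and 98.7 CPM. The summed CPM of 7 pituitary markers was 206.6 in OB vehicle and 108.8 in DIO rapamycin. It was 0 in both chow samples, DIO vehicle and OB rapamycin. The label was therefore at odds with the pituitary markers of the OB vehicle and DIO rapamycin samples. A second gate, added after seeing the data, also asked for a UMI of Cartpt or Lepr. That gate left 93 nuclei, of which 76 in 3 chow and DIO samples entered the fit. It kept 19 of 45 nuclei in DIO rapamycin. Both OB samples and chow rapamycin, at 8 nuclei, fell out of the fit, so the gate does not isolate the part of the OB pool.

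Under the first gate, 1 member was higher and 8 lower in Pomc nuclei, against 6.6% of all genes called (2.29% higher and 4.32% lower). Under the second gate, 1 of 21 members was higher and 10 were lower, against 7.85% of all genes (2.51% higher and 5.34% lower). The higher member was a different gene. Gabrg3 stood at 2183 CPM in chow vehicle, 2430.5 in DIO rapamycin and 3222 in DIO vehicle, above the 1036 to 1108 CPM of other neurons (log2 1.08, 95% interval 0.86 to 1.31, adjusted p = 2.3e-19). Under the first gate its difference was 0.48 over 6 samples (adjusted p = 0.45), where OB vehicle stood at 290.4 CPM and OB rapamycin at 1727 CPM. Over the 4 samples without the OB pool it was 0.93 (adjusted p = 1.9e-13). Gabre was called under the first gate (log2 1.88 ± 0.54 (SE), adjusted p = 0.038) and not under the second (log2 1.95, adjusted p = 0.22), where it held 7 UMIs.

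The alpha-4 gene Gabra4 had 1 UMI in the 76 Pomc nuclei, at 0 to 4.81 CPM against 47.4 to 58.8 CPM in other neurons (log2 -5.03, adjusted p = 7.5e-11). Glra2 had 2 UMIs, at 0 to 4.81 against 68.6 to 70.3 CPM (log2 -4.43, adjusted p = 1.5e-13). Both counts are too low for a precise fold. Gabra2 (log2 -1.21, adjusted p = 5.0e-14) and Gabrb2 (log2 -1.20, adjusted p = 4.9e-11) were also lower, as they were in the Agrp class.

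Classes of the medial and posterior hypothalamus had some glycine receptor genes above other neurons. The Nr5a1 class, 90 nuclei with the factor that marks the ventromedial nucleus, had 4 members higher and 2 lower, against 6.26% of all genes called (2.66% higher and 3.6% lower). Glra1 stood at 78.8 and 115 CPM in chow (rapamycin and vehicle), 160.1 and 143 in DIO, and 297 in OB rapamycin, with OB vehicle left out of the fit for its 3 nuclei, each above the 37.1 to 46.8 CPM of other neurons (log2 1.72 ± 0.20 (SE), adjusted p = 7.0e-16). Gabra5 (log2 0.98 ± 0.18 (SE), adjusted p = 1.3e-06), Glra3 (log2 0.76 ± 0.15 (SE), adjusted p = 1.8e-05) and Gabrb1 (log2 0.68 ± 0.095 (SE), adjusted p = 8.5e-11) were higher in 5 of 5 samples.

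The Lmx1 class, 969 nuclei with Lmx1a or Lmx1b, which mark posterior hypothalamic territories, had 5 members higher and 6 lower, against 13.1% of all genes called (7.53% higher and 5.57% lower). Glra3 was at 209 and 248 CPM for chow rapamycin and vehicle, 234 and 229.8 for the DIO pair, and 162 and 358 for the OB pair, above the 105 to 130.1 CPM of other neurons (log2 1.03 ± 0.056 (SE), adjusted p = 1.1e-16). Glra2 was at 119.8 and 142 CPM for chow rapamycin and vehicle, 122 and 102 for the DIO pair, and 146 and 114 for the OB pair against 65.6 to 87.9 CPM (log2 0.93 ± 0.068 (SE), adjusted p = 3.3e-13). Both glycine receptor genes were thus higher in 6 of 6 samples, whereas Glra1 was lower in 6 of 6 (log2 -0.60 ± 0.11 (SE), adjusted p = 1.5e-04). Gabbr2 was higher in 6 of 6 as well (log2 0.36 ± 0.043 (SE), adjusted p = 4.9e-08).

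The Foxb1 class, 56 nuclei with a factor of the mammillary region, was tested in 3 samples and had 0 members higher and 6 lower, against 3.46% of all genes called (1.36% higher and 2.1% lower). Gabrg3 stood at 154 and 164 CPM in chow (rapamycin and vehicle) and 151 in DIO rapamycin, against 1046 to 1112 CPM in other neurons (log2 -2.85 ± 0.19 (SE), adjusted p = 5.6e-46). In the DIO vehicle sample, left out of the fit for its 3 nuclei, it stood at 1017 CPM. Gabra3 (log2 -1.50 ± 0.30 (SE), adjusted p = 4.9e-05), Gabrg1 (log2 -1.65 ± 0.34 (SE), adjusted p = 8.8e-05) and Glra3 (log2 -1.98 ± 0.36 (SE), adjusted p = 5.0e-06) were lower in 3 of 3 samples.

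Neurons with Sim1 and Otp, factors of the paraventricular nucleus, made up a class of 358 nuclei with 1 member higher and 6 lower, against 8.87% of all genes called (4.12% higher and 4.75% lower). Gabra5 was at 11.2 to 33.9 CPM in it and at 73.4 to 81.3 CPM in other neurons, lower in 6 of 6 samples (log2 -1.35 ± 0.15 (SE), adjusted p = 4.2e-11). Glra2 was the higher one, in 4 of 6 samples (log2 0.53 ± 0.12 (SE), adjusted p = 0.001), and the call was lost under DESeq2, without the DIO pool and with marker limits doubled, where the difference was -0.006 over 3 samples. The Th class, 61 nuclei with the enzyme of dopamine synthesis, had 0 higher and 3 lower in 3 samples, against 1.86% of all genes called (0.774% higher and 1.08% lower), among them Gabrb2 (log2 -1.05 ± 0.22 (SE), adjusted p = 2.9e-04), a call lost under DESeq2.

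A set of 315 nuclei gated on Six6, Lhx1, Nms, Prok2, Vipr2 and Vip, genes of the suprachiasmatic nucleus, held Gad1 at 65.7 to 140.1 CPM but also Slc17a6 at 74.7 to 98.0 and Sim1 at 51.4 to 97.0 CPM. It therefore does not carry that nucleus's name here. It had 1 member higher, Gphn (log2 0.41 ± 0.099 (SE), adjusted p = 0.0018), and 5 lower, against 6.42% of all genes called (2.78% higher and 3.64% lower). All 6 calls were lost under at least 1 alternative.

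The NeuN sort left 601 astrocyte and 271 oligodendrocyte nuclei with a hashtag call, gated on glial genes, which gave a comparison of neuronal with glial members. Their nuclei were shallow, with sample medians of 1319 to 2463 UMIs. In astrocytes 5 members were higher and 12 lower than in neurons, against 50.7% of all genes called (19.7% higher and 31% lower). In oligodendrocytes 1 was higher and 14 lower, against 42.1% of all genes called (12.4% higher and 29.7% lower).

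Slc6a11, the astrocytic GABA carrier GAT-3, stood at 1032 and 1230.1 CPM for chow rapamycin and vehicle, 1004 and 985 for the DIO pair, and 1088 and 1166 for the OB pair in astrocytes. Neurons had 16.7 to 27.6 CPM, far below each of these 6 values (log2 5.62 ± 0.13 (SE), adjusted p = 3.9e-60). Gabbr2 was at 878 and 1016 CPM for chow rapamycin and vehicle, 956 and 493 for the DIO pair, and 823 and 733 for the OB pair, with the DIO vehicle sample lowest, and neurons at 186 to 283 CPM (log2 1.72 ± 0.13 (SE), adjusted p = 6.0e-23). Gabbr1, its partner, was at 164 to 284 against 77.3 to 92.0 CPM (log2 1.45 ± 0.13 (SE), adjusted p = 5.1e-18). Both GABA-B subunit genes were therefore higher in astrocytes than in neurons in 6 of 6 samples. Of the GABA-A genes, Gabrb1 was higher in 6 of 6 (log2 0.80 ± 0.11 (SE), adjusted p = 2.6e-09) and Gabrg1 in 5 of 6 (log2 0.37 ± 0.13 (SE), adjusted p = 0.015). The Gabrg1 call was lost without the DIO pool, without the OB pool and with no filter on low counts. Gabrb2, by contrast, held 13 UMIs in all astrocytes (log2 -4.88 ± 0.24 (SE), adjusted p = 1.4e-34) and Slc12a5 7 UMIs (log2 -4.58 ± 0.30 (SE), adjusted p = 1.3e-25).

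Oligodendrocytes had the chloride importer gene Slc12a2 at 462 and 432 CPM for chow rapamycin and vehicle, 219 and 737 for the DIO pair, and 318 and 445 for the OB pair, all above the 41.7 to 50.4 CPM of neurons (log2 3.01 ± 0.19 (SE), adjusted p = 3.6e-52). The DIO vehicle value, the highest, rested on 15 nuclei with 23051 UMIs. Slc12a2 was the member that rose in this class. In astrocytes it was lower in 5 of 6 samples (log2 -0.69 ± 0.27 (SE), adjusted p = 0.025), a call lost under DESeq2, without TMM factors, without chow and without DIO. The chloride extruder Slc12a5 was lower in oligodendrocytes in 6 of 6 (log2 -4.88 ± 0.49 (SE), adjusted p = 6.1e-22). Gabra4 had 0 UMIs among 647008 UMIs of oligodendrocytes, while neurons had 46.4 to 58.4 CPM. The neuronal gene Agrp was at 36.5 to 62.8 CPM in astrocytes, and the part of RNA from outside the nucleus in low member values was not tested.

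Rapamycin was compared with vehicle over the 3 pools, with the pool as a block, which asks whether the inhibition of mTORC1 moves these genes in neurons at large. By edgeR, 0 of 24 members tested passed, against 0.374% of 17392 genes (0.0747% higher and 0.299% lower), and 2 members had an unadjusted p under 0.05. DESeq2 called 0 members and 0 genes. Glra3 was at 123 and 135 CPM for chow rapamycin and vehicle, 120.2 and 125 for the DIO pair, and 107 and 125 for the OB pair, so rapamycin was below vehicle in 3 of 3 pools (log2 -0.14, 95% interval -0.26 to -0.02, adjusted p = 0.73). Gabra4 was at 47.9 and 47.1 CPM for chow rapamycin and vehicle, 52.2 and 58.4 for the DIO pair, and 46.4 and 57.0 for the OB pair, lower after rapamycin in DIO and OB and not in chow (log2 -0.13, interval -0.25 to -0.01, adjusted p = 0.81). Over the 18 members with more than 2000 UMIs in neurons, estimates ran from -0.14 to 0.11 and their 95% intervals stayed between -0.26 and 0.23. These p-values rest on how far the rapamycin difference varied between the 3 pools, which differ in diet and genotype.

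Within a pool, 21 members had at least 50 UMIs over both samples together. Their median log2 ratio was 0.02 in chow, -0.02 in DIO and 0.001 in OB. Over all genes it was -0.03, 0.04 and 0.02. Past a log2 ratio of 0.5 either way were 0 members in chow, 0 in DIO and 1 in OB, Glra4 at -0.57, where 2.68%, 4.58% and 6.64% of all genes were. Glra4 held 72 UMIs in OB neurons over both samples together. Some members went opposite ways in the pools. Gabbr2 was higher after rapamycin in chow (0.15, interval 0.10 to 0.20) and OB (0.14, 0.06 to 0.23) and lower in DIO (-0.09, -0.13 to -0.04). Glra1 was at 0.22 (0.11 to 0.34) in chow, 0.23 (0.02 to 0.43) in OB and -0.07 (-0.18 to 0.04) in DIO. These intervals cover counting error only, and the difference between pools was not tested.

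**Figure D4:**
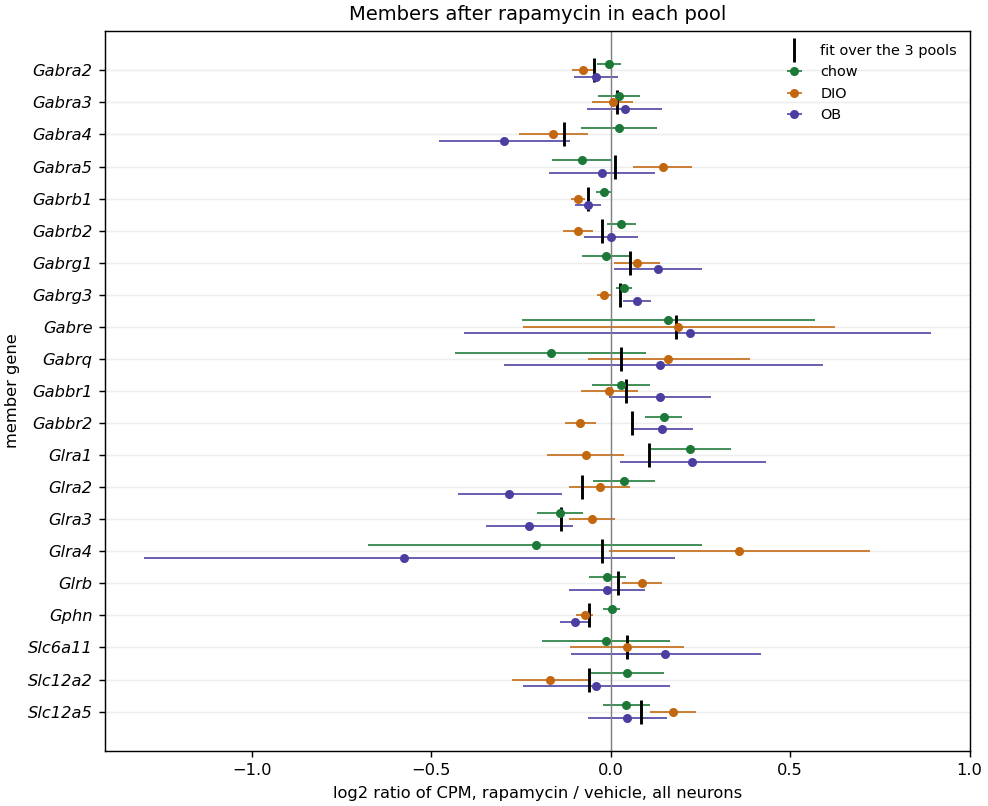
Log2 ratio of CPM, rapamycin over vehicle (x axis), in all neurons of each pool. The y axis lists the 21 members with at least 50 UMIs over both samples together in every pool. Points with bars are ratios with exact 95% intervals for counting error, and black ticks are the edgeR estimate over the 3 pools. Of the points, 1 lies past 0.5 either way, Glra4 in OB at -0.57.

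The rapamycin effect was also compared between the transmitter classes. By edgeR, 0 of 21 members differed in effect between GABAergic and glutamatergic neurons, against 0% of 14304 genes, and DESeq2 called 0. The members Gabra2 and Glra4 had an unadjusted p under 0.05. In GABAergic neurons alone 0 of 21 members passed (1 at an unadjusted p under 0.05, and 0.0136% of all genes called), and in glutamatergic neurons 0 of 19 (0 at that p, and 0.0222% of all genes called, 0.00739% higher and 0.0148% lower).

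Vehicle neurons of the DIO and OB pools were set beside those of the chow pool, without a test; both ratios share the chow vehicle sample. The median log2 ratio of the 21 members was 0.05 for DIO and 0.12 for OB, against -0.04 and -0.02 over all genes. With UMIs thinned to the smaller total the OB median was 0.033. Past 0.5 were 1 member in DIO and 2 in OB, where 20.7% of all genes were in each. The DIO member was Gabbr2. In neurons it was at 207 and 186 CPM for chow rapamycin and vehicle, 267 and 283 for the DIO pair, and 246 and 223 for the OB pair, so both DIO samples were above both chow samples (log2 0.60 between vehicle samples, interval 0.56 to 0.65). The same order held in GABAergic neurons, with 259 CPM in DIO and 183 in chow, and in glutamatergic neurons, with 325 and 201 CPM. Glrb went the other way: it stood at 198 and 199 CPM for chow rapamycin and vehicle, 170.2 and 160.2 for the DIO pair, and 158 and 159 for the OB pair, lower in all 4 DIO and OB samples (log2 -0.31 in DIO vehicle and -0.33 in OB vehicle against chow vehicle).

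The OB members past 0.5 were Glra4 at 0.53 (interval -0.16 to 1.17) and Slc6a11 at 0.56 (interval 0.30 to 0.82). Slc6a11 in neurons was at 16.7 and 16.9 CPM for chow rapamycin and vehicle, 20.7 and 20.1 for the DIO pair, and 27.6 and 24.8 for the OB pair. The summed CPM of 7 astrocyte markers in the same neuron sums ranged from 6.27 to 7.09 over the chow and DIO samples and was 25.2 and 35.7 in OB rapamycin and vehicle, and their part in the Slc6a11 ratio was not tested. The OB matrix was made with Cell Ranger 7.0.1 and the others with 6.0.0, per the file headers, and group and version cannot be told apart.

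The members that passed no filter on low counts in the transmitter comparison were Gabra6, Gabrd, Gabrr1, Gabrr2 and Slc6a5. Over the 26260 neurons they had 7, 93, 89, 109 and 30 UMIs. Gabra6 is the alpha subunit of cerebellar granule cells, Gabrr1 and Gabrr2 are rho subunits known from the retina, and Slc6a5 is the glycine carrier of neurons that release glycine. Gabrd codes for the delta subunit of extrasynaptic receptors. Such counts do not show differences between classes at this depth.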

How the data were processed

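For 3 pools the authors deposited UMI counts of genes and hashtags in each nucleus, not normalized, aligned to mm10 with Cell Ranger 6.0.0 per the submitters' processing notes. The file headers give 6.0.0 for chow and DIO but 7.0.1 for OB. Whether intronic reads were counted is not given in the sources used here. The deposited key ties hashtag 1 to rapamycin and hashtag 2 to vehicle. A nucleus needed at least 500 UMIs, at least 300 genes and a mitochondrial share below 5%; 1 was left out. HTODemux (Seurat 5.3.0, positive quantile 0.99) gave the hashtag calls. Doublets between hashtags were removed, while doublets within a hashtag stay in.

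A nucleus was a neuron when 8 neuronal genes held at least 3 UMIs and more than each list of glial, vascular, tanycyte or pituitary genes. It was GABAergic with at least 2 UMIs of the GABA genes and at least 3 times as many as of the glutamate genes, and glutamatergic the other way round. Marker classes needed at least 2 to 5 UMIs of their own genes. A neuron meeting more than 1 class was left out of all of them.

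UMIs were summed per sample and class and tested with edgeR 4.0.16 (R 4.3.3): TMM factors, filterByExpr, the quasi-likelihood test, and Benjamini-Hochberg adjustment over all genes of a fit, with 0.05 as the threshold. The sample was the block in class tests and the pool in rapamycin tests. All adjusted p-values in the text are from these fits. Ratios between single samples carry exact 95% intervals. The fits were also run on simulated sums with known changes, drawn from a shared expression profile without differences between pools. Such runs do not show how the fits treat real differences between pools. All 26 members are named; of the companion list, the called genes with the largest changes, except 1 that is not reported here. The members and lists were chosen with earlier results of these data known. Alternatives were DESeq2 1.42.0, no TMM factor, no filter, hashtags called by tag ratio, other class limits, nuclei thinned to 2000 UMIs, and each pool left out.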

Additional observations from a re-analysis of the deposited data

How the results depend on the processing

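Between GABAergic and glutamatergic neurons, 4 members passed as higher and 8 as lower; leaving out each pool gave 4 to 4 and 7 to 8. With a class limit of 4 marker UMIs the counts were 2 and 4, and with the Hdc class also left out 3 and 3. With Slc32a1 alone against Slc17a6 alone they were 0 and 1, over 6765 tested genes in place of 13553. Nuclei thinned to 2000 UMIs gave 3 and 4, and a limit of 1 marker UMI gave 5 and 12. The share of all genes called moved too. It was 16.9% in the main fit, and 11.9%, 10.2% and 16.5% without chow, DIO and OB. At the limit of 4 UMIs it was 7.48%, with the Hdc class also left out 7.19%, and with Slc32a1 against Slc17a6 3.25%. Thinning gave 7.02% and the limit of 1 UMI 21.7%. Gabra2 reversed to 0.026 with the limit of 4 UMIs (adjusted p = 0.94); the cause was not tested. The 128 calls over the marker classes became 76 with marker limits doubled, which left 7 of 13 classes to fit and turned the sign of 1 call (Glra2 in the Sim1 class, -0.006), and ranged from 75 to 134 with a pool left out. They were 83 without chow and 75 without DIO, each with 10 classes fitted. DESeq2 kept 99 of the 128. Of the 128, 75 passed under every alternative that could be fitted. The chow rapamycin median of 0.023 was 0.050 with TMM factors, and the OB against chow vehicle median of 0.115 was 0.033 with sums thinned to the smaller total. The rapamycin and interaction tests called 0 members under all alternatives run, although the number of all genes called by the rapamycin fit ranged from 0 under DESeq2 and 4 without DIO to 202 without chow. The number of nuclei limits the marker classes, and most neurons had too few marker UMIs, or too mixed ones, for a transmitter class. Classes were compared within samples and rapamycin with vehicle within pools; the labels give no replicate numbers for a further block.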
